A study of Drosophila melanogaster with 6 samples.

Results

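The mitochondrial ribosome is assembled from RNAs of the mitochondrial genome and from proteins whose genes lie in the nucleus. Those protein genes were followed here in the fly brain at a single age. A gene was taken when its symbol, in the deposited table or in the current annotation, began with mRpL or mRpS and a number. This rule used no measured value and found 72 of the 17483 genes in the table, of which 46 (mRpL) encode proteins named for the large subunit and 26 (mRpS) proteins named for the small subunit. The messenger RNA of brains dissected from 15-day-old Drosophila melanogaster of w1118, a white-eyed strain that served as wild type, had been sequenced in 6 libraries. Flies of 3 libraries had food with added spermidine, a polyamine, and flies of the other 3 had normal food. Neither the spermidine dose nor the sex of the flies is given in the labels, which also do not say that replicates came from separate batches of flies, so the spread behind each p-value may be technical. The design asks whether these RNAs differ in brains of flies fed spermidine.

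Mitoribosomes translate the few messenger RNAs made inside mitochondria, which encode core subunits of the respiratory chain and ATP synthase. The small subunit binds and decodes the messenger RNA, and the large subunit joins the amino acids and passes the growing chain through an exit tunnel towards the inner membrane. Many of the proteins descend from those of the bacterial ribosome, while others are found only in mitochondria, and in animals the proteins make up more of the particle than in bacteria. Fly mutants of tko, the gene of small subunit protein S12, are known for seizures after mechanical shock.

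Expression was given as FPKM, the fragments assigned to a gene scaled by the length of the gene and by the fragments of the library, which allows levels of different genes to be compared. The FPKM values of a library summed to between 615229 and 720639, and 1 short RNA, mir-4940, took between 14.2% and 25.8% of that sum. Counts per library were not used here, but the authors' mean normalized counts per food summed to 47904049 on spermidine food and 48052547 on normal food. Each mitoribosomal gene had a mean normalized count between 217 and 2991 on spermidine food and between 168 and 3388 on normal food. All 72 genes had a successful FPKM estimate in every library and passed the filter of at least 0.5 FPKM in at least 3 of 6 libraries, which left 10366 genes for the test. In bulk tissue, fewer cells of a type and less RNA per cell cannot be told apart.

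The genes were expressed at closely similar levels. Mean FPKM over the 6 libraries ran from 16.5 to 79.3, a 4.81-fold range, with a median of 28.9, and 66 of the 72 genes lay between 15 and 50 FPKM. The SD of the log2 level among them was 0.47, against 1.51 among 84 cytosolic ribosomal protein genes, 2.23 among 70 nuclear genes of the respiratory chain and 1.98 among all genes tested. The cytosolic and respiratory chain lists reached down to mean FPKM of 1.24 and 0.57, and such low genes widen an SD. The distance between the lower and upper quartile of the log2 level was 0.58, against 0.80, 1.42 and 2.69 in the same order, so the cytosolic genes differed less by this measure. Large subunit genes had a median of 26.7 FPKM (17.6 to 64.1) and small subunit genes a median of 32.3 FPKM (16.5 to 79.3).

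**Figure D1:**
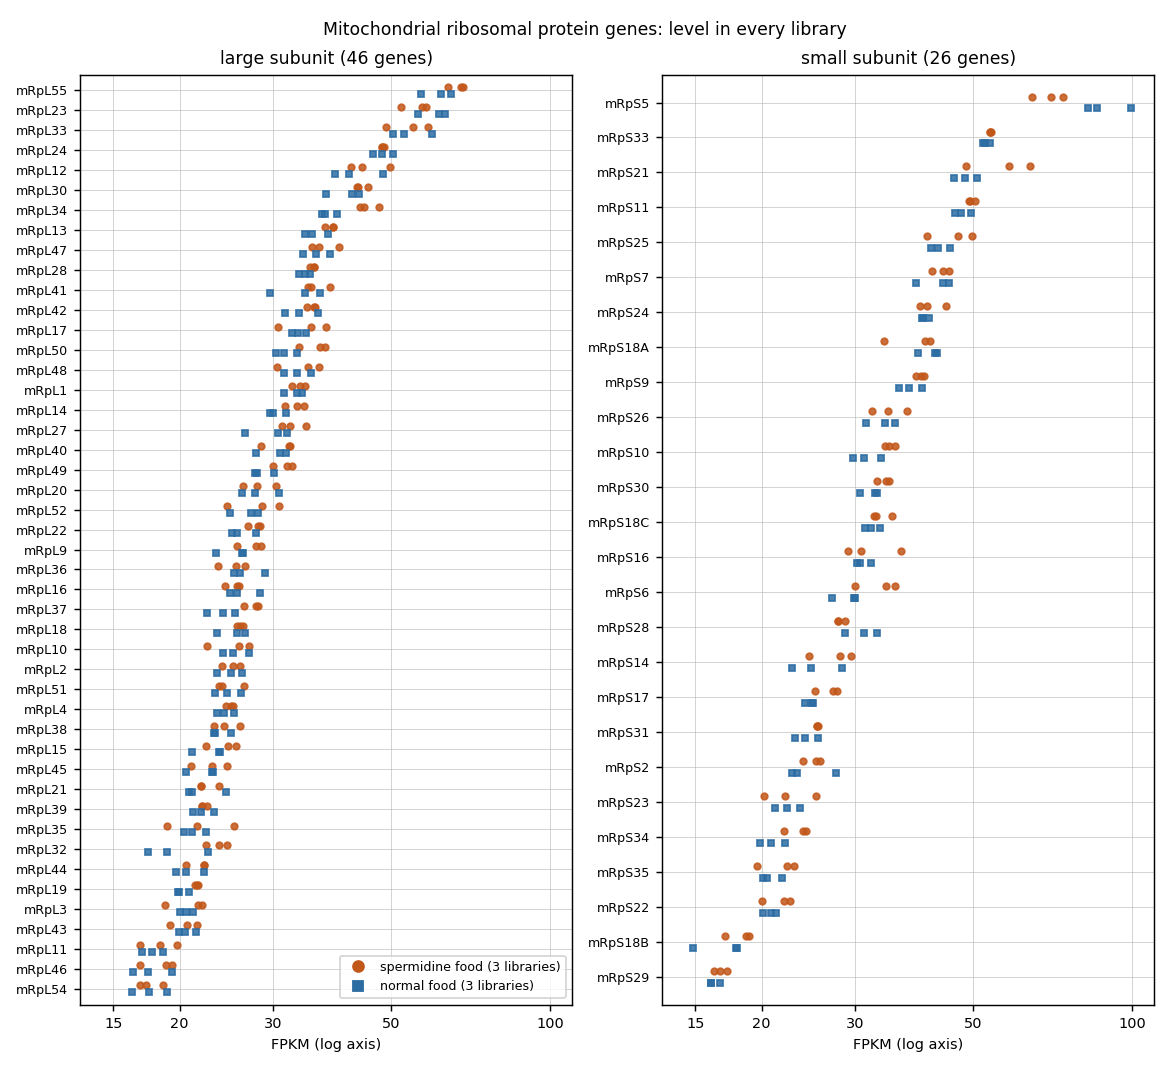
Level of each of the 72 genes in each library, in FPKM on a log axis, with spermidine food as circles and normal food as squares and genes ordered by mean level within each subunit. Libraries of the foods mostly lie over each other, and single values span 14.8 to 99.3 FPKM.

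At the top of the large subunit stood mRpL55, the counterpart of bacterial L31, with 67.8, 68.4 and 64.0 FPKM on spermidine food and 64.8, 57.1 and 62.2 FPKM on normal food. It was followed by mRpL23, mRpL33 and mRpL24, of which mRpL23 and mRpL24 lie at the outer end of the exit tunnel. The lowest large subunit levels were those of mRpL54, mRpL46 and mRpL43, proteins found only in mitochondria, and of mRpL11, which forms the base of the stalk that binds elongation factors. mRpL54 had 18.6, 16.9 and 17.3 FPKM on spermidine food and 16.3, 17.5 and 18.9 FPKM on normal food.

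In the small subunit the highest gene was mRpS5, whose bacterial counterpart lies where messenger RNA enters the ribosome, followed by mRpS33, mRpS21 and mRpS11. mRpS29, which carries a GTP-binding domain and is called DAP3 in mammals, had the lowest level, with 16.3, 17.2 and 16.7 FPKM on spermidine food and 16.7, 16.0 and 16.1 FPKM on normal food. Next above it were mRpS18B, mRpS22 and mRpS35. Apart from mRpS5 and mRpS33, each of these genes had overlapping libraries on the 2 foods.

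Between foods, few mitoribosomal genes were called. Of the 72 genes, 1 passed the limma adjusted p of 0.05 as higher on spermidine food (1.39%), where 3.21% of all genes tested did. As lower, 0 passed, where 1.52% of all genes did. Counts of 1 and 0 among 72 genes are near these shares and are not a result about the group. At an unadjusted limma p under 0.05 there were 10 genes (13.9%), 9 of them higher and 1 lower on spermidine food, against 21.1% of all genes tested. The 3 spermidine food libraries lay above all 3 normal food libraries for 7 genes (9.72%), where 17.2% of all genes did, and below them for 1 gene, where 10.8% of all genes did. By the authors' deposited p-values, adjusted over the same genes, 1 gene was higher, against 8.2% of all genes, and 1 was lower, against 8.7%.

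The differences were small in size and mostly pointed one way on the deposited scale. The mean was higher on spermidine food for 63 of the 72 genes (87.5%), where 57.6% of all genes tested had a higher mean, but the count was 27 when libraries were set to the same upper quartile and 19 when each library was divided by its FPKM sum. The median log2 fold change of the mitoribosomal genes was 0.05, and that of all genes was 0.02. Under the upper-quartile scaling the median of all genes was -0.04, beside -0.02 for large and -0.01 for small subunit genes. After division by the FPKM sum the median of all genes was -0.06, beside -0.05 and -0.04. The subunit medians thus stayed above that of all genes under both scalings. The share of all genes with a higher mean under these scalings is not given here. On the deposited scale 55 of the 72 genes lay above the median of all genes.

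**Figure D2:**
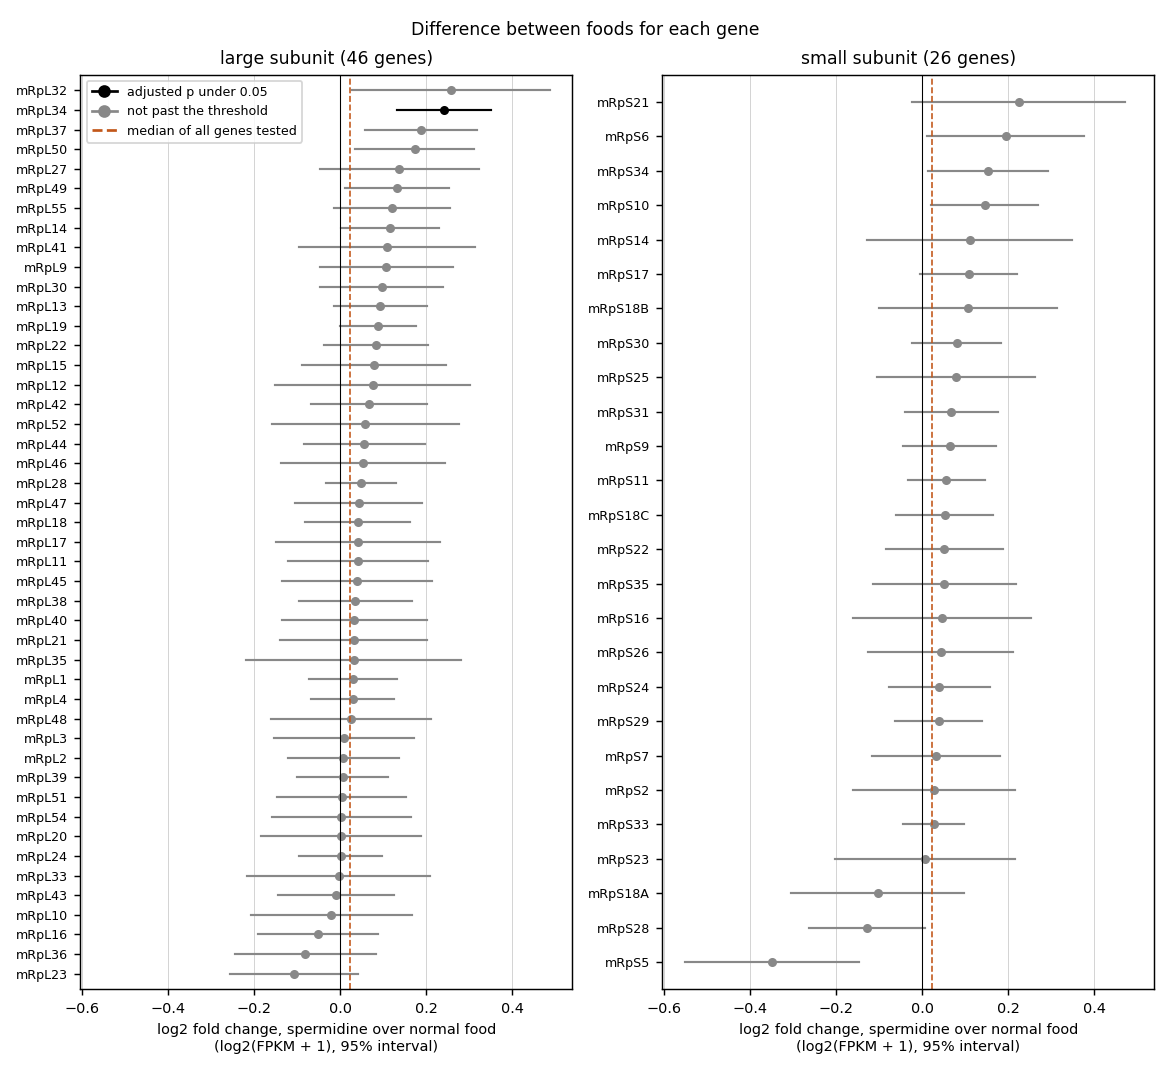
Log2 fold change of each gene, spermidine over normal food, on the log2(FPKM + 1) scale with its 95% interval from limma, for the large and the small subunit. The dashed line is the median of all genes tested (0.02), and mRpL34, in black, is the gene that passed the adjusted threshold.

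The intervals show how large a change could have gone unseen. The 95% interval of the log2 fold change stayed within a 1.3-fold change either way for 69 of the 72 genes (95.8%), compared with 71.9% of all genes tested, and within 1.5-fold for all 72, compared with 85.3%. The genes whose interval reached past 1.3-fold were mRpL32, mRpS5 and mRpS21. Within 1.1-fold lay 7 genes, so for most of the 72 the interval did not exclude a change of that size. The median SD between libraries of a food was 0.08 on the log2 scale for the mitoribosomal genes and 0.08 for all genes tested. Among the 3880 genes with a mean FPKM in the range of the mitoribosomal genes it was 0.06, and 4.48% of those genes passed the adjusted threshold in either direction.

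The large subunit gene that passed was mRpL34 (FBgn0083983), which encodes a protein of 81 residues related to bacterial L34, one of the smallest proteins of the large subunit. It lies on chromosome arm 2R from 16098948 to 16099337 on the plus strand in Ensembl build 82, with 2 exons. It had 43.8, 44.5 and 47.4 FPKM on spermidine food and 39.7, 37.6 and 37.1 FPKM on normal food. All 3 spermidine food libraries lay above all 3 normal food libraries.

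mRpL34 rose by a log2 fold change of 0.24 (95% interval 0.13 to 0.35, limma adjusted p = 0.0406, n = 3 each). Its direction was the same under each alternative tried, with a log2 fold change of 0.15 after division by the FPKM sum, but the call was lost without any single library (limma adjusted p between 0.0513 and 0.129), after division by the FPKM sum (0.439) and under the upper-quartile scaling (0.0648). In the authors' deposited table it had a fold change of 1.17 with a p of 0.174 after adjustment over the genes tested. CG8414, a gene on the other strand that overlaps it, had 4.87 FPKM on spermidine food and 4.92 FPKM on normal food.

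Next in the large subunit was mRpL37 (FBgn0261380), a protein found only in mitochondria, with 28.1, 27.9 and 26.5 FPKM on spermidine food and 25.4, 22.5 and 24.1 FPKM on normal food. The groups did not overlap, and the log2 fold change was 0.19 (limma adjusted p = 0.111). In the authors' deposited table its fold change was 1.13, and it was the mitoribosomal gene called higher there, with a p of 0.0150 after adjustment. mRpL50, likewise found only in mitochondria, had 36.7, 37.6 and 33.5 FPKM on spermidine food and 33.4, 31.5 and 30.4 FPKM on normal food, and its groups did not overlap (log2 fold change 0.17, limma adjusted p = 0.155).

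**Figure D3:**
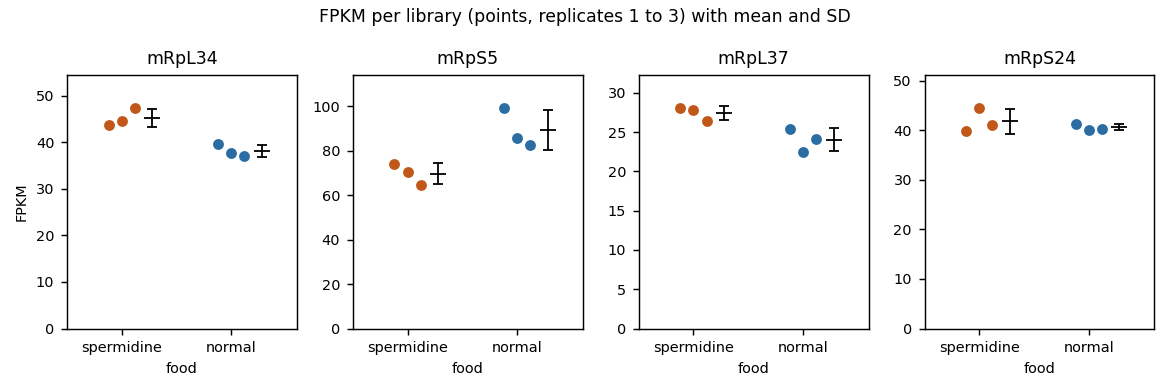
FPKM of mRpL34, mRpS5, mRpL37 and mRpS24 in each library (points, replicates 1 to 3), with the mean and SD of each food beside them. Spermidine food lies above normal food in each library of mRpL34 and mRpL37 and below it in each library of mRpS5, while the values of mRpS24 overlap.

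mRpL32, whose precursor is trimmed by the m-AAA protease before assembly in yeast and mammals, had the highest log2 fold change of the 72 genes, 0.26 (95% interval 0.03 to 0.49, limma adjusted p = 0.195). Its values were 24.6, 22.4 and 23.7 FPKM on spermidine food and 22.6, 17.4 and 18.9 FPKM on normal food. Replicate 1 of normal food lay within the spermidine range, and the other 2 normal food libraries lay below it. mRpL49, found only in mitochondria, and mRpL14, whose bacterial counterpart faces the small subunit, had log2 fold changes of 0.13 and 0.12 with overlapping groups. For mRpL19, another protein that in bacteria lies at the contact between subunits, the groups were close but apart, at 21.5, 21.4 and 21.7 FPKM on spermidine food and 20.8, 19.9 and 19.9 FPKM on normal food (log2 fold change 0.09).

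Of 10 genes of the functional core of the large subunit, none had groups apart, and the difference of the means exceeded the SD of both foods for mRpL22 and mRpL23. mRpL2 and mRpL3, which hold the peptidyl transferase centre in place, averaged 25.1 ± 0.99 and 20.8 ± 1.80 FPKM on spermidine food and 24.9 ± 1.37 and 20.6 ± 0.585 FPKM on normal food (SD, n = 3 each), and their log2 fold change was 0.01 for both genes. Of the exit tunnel proteins, mRpL4 had a log2 fold change of 0.03, mRpL22 of 0.08, mRpL24 of 0.00053 and mRpL23 of -0.11. Of the stalk proteins, mRpL10 had -0.02, mRpL11 0.04 and mRpL12 0.08. mRpL45, which in mammals sits at the tunnel exit and anchors the ribosome to the inner membrane, had 0.04. None of these 10 values reached an unadjusted p of 0.05 in limma, and all 10 were below 0 when each library was divided by its FPKM sum. The large subunit genes not described one by one lay between -0.08 (mRpL36) and 0.14 (mRpL27), each with overlapping libraries and an unadjusted limma p above 0.05.

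In the small subunit, mRpS5 (FBgn0044510) stood apart from the rest with lower values on spermidine food. It lies on chromosome arm 3L from 24537236 to 24543534 on the plus strand in Ensembl build 82, and its protein has 407 residues. It had 73.9, 70.3 and 64.5 FPKM on spermidine food and 99.3, 85.6 and 82.4 FPKM on normal food. All 3 spermidine food libraries lay below all 3 normal food libraries.

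Its log2 fold change was -0.35 (95% interval -0.55 to -0.15, limma adjusted p = 0.0733, n = 3 each), the only one of the 72 with an unadjusted p under 0.05 and a lower mean. It passed as lower when each library was divided by its FPKM sum (log2 fold change -0.44, limma adjusted p = 0.0201), while under the upper-quartile scaling it did not (0.0682). In the authors' deposited table its fold change was -1.16, where the minus sign marks a lower mean on spermidine food, with mean normalized counts of 2902 on spermidine food and 3388 on normal food. That difference had a p of 0.00969 after adjustment over the genes tested, so mRpS5 was the mitoribosomal gene called lower there.

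Other small subunit genes of low p were higher on spermidine food without passing the test. mRpS10, a protein of the head of the small subunit, had 34.8, 35.7 and 34.2 FPKM on spermidine food and 31.2, 29.7 and 33.6 FPKM on normal food, and its groups did not overlap (log2 fold change 0.14, limma adjusted p = 0.183). mRpS17, which in bacteria binds ribosomal RNA early in assembly, had 27.2, 27.8 and 25.2 FPKM on spermidine food and 24.9, 25.03 and 24.2 FPKM on normal food, again without overlap (0.11, limma adjusted p = 0.260). mRpS33, found only in mitochondria, also had groups apart, but by little, with 53.9, 53.9 and 54.0 FPKM on spermidine food and 53.8, 52.3 and 52.8 FPKM on normal food.

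mRpS6, whose bacterial counterpart pairs with S18, and mRpS34, found only in mitochondria, had log2 fold changes of 0.19 and 0.15 with overlapping groups. mRpS21 had 64.1, 58.5 and 48.5 FPKM on spermidine food and 46.2, 48.3 and 50.8 FPKM on normal food. Replicates 1 and 2 of spermidine food lay above every normal food library, while replicate 3 lay within the normal food range (log2 fold change 0.22, limma adjusted p = 0.283). mRpS28, in mammals the counterpart of bacterial S1, was the gene of second lowest fold change, with 27.8, 28.8 and 27.9 FPKM on spermidine food and 33.0, 28.7 and 31.1 FPKM on normal food (-0.13, limma adjusted p = 0.260).

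None of the 3 genes related to bacterial S18 passed the test, and differences between them were not tested. mRpS18A, whose mammalian counterpart is built into the large subunit, had 41.6, 40.7 and 34.0 FPKM on spermidine food and 42.9, 39.4 and 42.5 FPKM on normal food, a log2 fold change of -0.10. mRpS18B had 0.11, mRpS18C had 0.05, and in all 3 the libraries of the foods overlapped. mRpS29 had a log2 fold change of 0.04, mRpS11 of 0.06 and mRpS7, a protein of the head of the small subunit, of 0.03, with overlapping libraries throughout. The small subunit genes not described one by one lay between a log2 fold change of 0.01 (mRpS23) and 0.11 (mRpS14), each with overlapping libraries and an unadjusted limma p above 0.05.

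Set side by side, the genes of the subunits gave nearly the same differences. The median log2 fold change was 0.04 for the 46 large subunit genes, of which 40 had a higher mean on spermidine food, and 0.05 for the 26 small subunit genes, of which 23 did. Both medians turned negative, to -0.05 and -0.04, when each library was divided by its FPKM sum, where the median of all genes was -0.06. Within libraries, the median log2 level of large subunit genes minus that of small subunit genes was -0.15, -0.31 and -0.32 on spermidine food and -0.18, -0.21 and -0.27 on normal food. The foods overlapped in this balance, which for the median fold changes came to -0.01. Counting mRpS18A and mRpS30, whose mammalian counterparts are large subunit proteins, with the large subunit left both medians as they were. That outcome was fixed by the values, since mRpS18A (-0.10) lies below both medians and mRpS30 (0.08) above both.

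A split by descent told no more apart. The median log2 fold change was 0.04 for 30 large subunit genes of bacterial descent, 0.05 for 16 large subunit genes found only in mitochondria, 0.05 for 16 small subunit genes of bacterial descent and 0.05 for 10 small subunit genes found only in mitochondria. This grouping was made after the values were seen.

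The genes shifted together from library to library by about as much as they differed between foods. The mean deviation of the 72 genes from their 6-library mean, on the log2 scale, was 0.01, 0.06 and -0.00075 in the spermidine food libraries and 0.04, -0.08 and -0.04 in the normal food libraries. Spermidine food replicate 2 held the highest value of 28 of the 72 genes and the lowest of 0, while normal food replicate 2 held the lowest value of 34 and the highest of 0. Over all genes tested, spermidine food replicate 2 was highest for 16.2% and normal food replicate 2 was lowest for 32.0%. Without normal food replicate 2 the number of mitoribosomal genes with a higher mean on spermidine food was 50, and without spermidine food replicate 2 it was 53. The median log2 fold change of all genes was 0.005 and 0.016 in these fits.

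**Figure D4:**
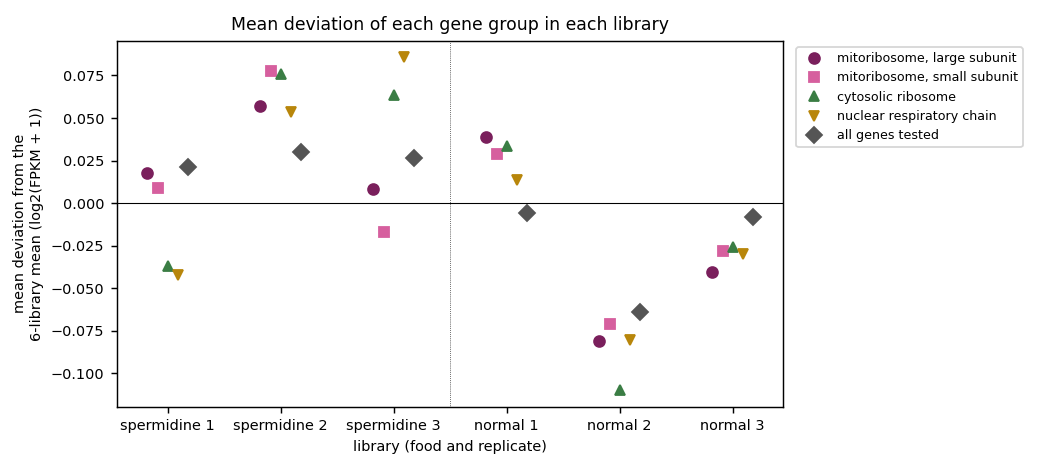
Mean deviation of each gene group from its own 6-library mean, on the log2(FPKM + 1) scale, in each library. Both mitoribosomal subunits are lowest in normal food replicate 2 and highest in spermidine food replicate 2. In both, normal food replicate 1 lies above spermidine food replicates 1 and 3, so the foods overlap. For all genes tested the foods do not overlap, at 0.021 to 0.030 on spermidine food and -0.064 to -0.0056 on normal food.

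The summed FPKM of the 72 genes was 2275 to 2388 on spermidine food and 2170 to 2354 on normal food, so the foods overlapped there as well. In the same libraries the cytosolic ribosomal protein genes, of which 72 of 84 had a higher mean on spermidine food, were lowest in normal food replicate 2 for 67.9% of genes, and the nuclear respiratory chain genes for 55.7%. Their median log2 fold changes were 0.07 and 0.08. What these groups share with the mitoribosomal genes in those libraries was not tested.

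The authors' deposited fold changes, made from normalized counts, lay close to those from FPKM, with a median difference of -0.01 on the log2 scale. The deposited fold change was 1 or more for 56 of the 72 genes and -1 or less for 16, and 52.7% of all genes tested had a value of 1 or more. The sign differed between the scales for 7 genes, mRpL3, mRpL20, mRpL24, mRpL38, mRpL39, mRpL51 and mRpL54, all of them close to no change. mRpS24, the counterpart of bacterial S3, differed most in size, with a log2 fold change of 0.04 from FPKM and a deposited fold change of 1.16. Its mean normalized counts were 234 on spermidine food and 196 on normal food. The deposited fold change is smaller than the ratio of these means, so it is not that ratio. Its FPKM values were 39.8, 44.6 and 41.0 on spermidine food and 41.3, 40.1 and 40.3 on normal food. mRpL38 had 0.04 from FPKM and a deposited fold change of -1.03, and mRpS21 had 0.22 from FPKM and a deposited fold change of 1.24.

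**Figure D5:**
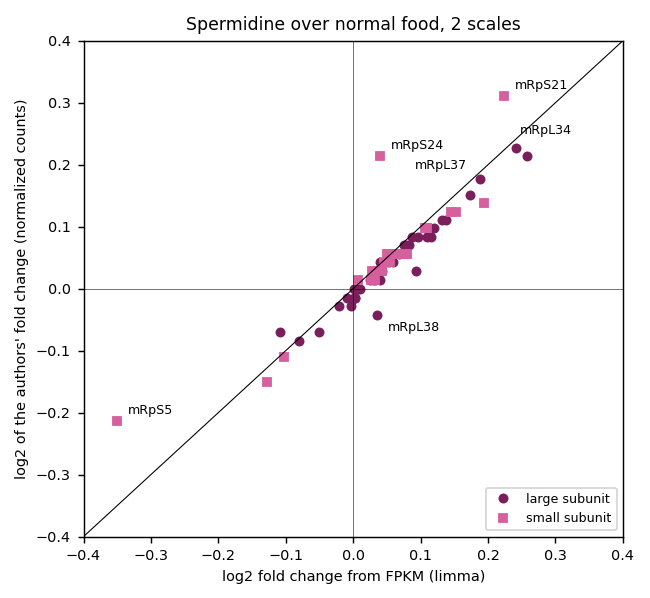
Each gene's log2 fold change from FPKM (horizontal axis) against the log2 of the authors' deposited fold change (vertical axis), spermidine over normal food, with the line of equal values. Most genes lie near the line, with mRpS24 (0.04 against 0.21) and mRpS5 (-0.35 against -0.21) farthest from it.

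Many of these genes share their stretch of chromosome with another gene. By their positions in Ensembl build 82, 42 of the 72 overlap another gene, 41 of them a gene on the other strand, and mRpL13 and mRpS14 overlap one on the same strand. The sources used here do not say whether reads were counted by strand, so reads of overlapping genes may not have been told apart. The median log2 fold change was 0.04 for genes with an overlap and 0.05 for the 30 without. mRpL43, with a log2 fold change of -0.01, overlaps sigmar, which had 26.2 FPKM on spermidine food and 31.7 FPKM on normal food (-0.26, limma adjusted p = 0.0660). mRpS5, mRpL37 and mRpS10 overlap no other gene.

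Genes that work with the mitoribosome form short lists, in which a count of 0 is near the shares of all genes tested (3.21% higher and 1.52% lower) and is not a result about a list. Mitoribosomal proteins with other symbols included tko, the gene of S12, which had 43.3, 40.9 and 40.1 FPKM on spermidine food and 35.8, 35.2 and 37.6 FPKM on normal food (log2 fold change 0.19, limma adjusted p = 0.0678). bonsai, the gene of S15, had 25.5, 24.3 and 26.7 FPKM on spermidine food and 23.3, 22.3 and 23.1 FPKM on normal food (0.15, limma adjusted p = 0.138). CRIF, the third such gene, had 33.2, 32.0 and 31.8 FPKM on spermidine food and 30.7, 29.6 and 31.3 FPKM on normal food (0.08, limma adjusted p = 0.284). None of the 3 genes passed the adjusted threshold. In each the spermidine food libraries lay above those of normal food, as they did for 17.2% of all genes tested. Together with mRpS29 their summed FPKM was 114 to 118 on spermidine food and 103 to 108 on normal food. The summed FPKM of all genes tested was also apart, at 525689 to 530118 on spermidine food and 475277 to 510356 on normal food. As a share of a library's FPKM sum the 4 genes overlapped between foods, at 0.0164% to 0.0184% on spermidine food and 0.0165% to 0.0175% on normal food.

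Of 10 mitochondrial translation factor genes tested, 0 passed in limma, with 1 at an unadjusted p under 0.05, a level that 21.1% of all genes tested reached. That gene was mEFTu2, an elongation factor that brings aminoacyl-tRNA to the ribosome, with 16.7 ± 1.33 FPKM on spermidine food and 14.5 ± 1.03 FPKM on normal food (SD, n = 3 each). mIF3, an initiation factor, had the next smallest p, with 8.31 ± 0.799 FPKM on spermidine food and 7.31 ± 0.395 FPKM on normal food (limma adjusted p = 0.312). Of 16 aminoacyl-tRNA synthetase genes, which charge tRNAs with amino acids, 0 passed and 3 had an unadjusted p under 0.05 in limma. ValRS-m had 7.43, 6.90 and 7.27 FPKM on spermidine food and 7.96, 7.90 and 8.30 FPKM on normal food (log2 fold change -0.14, limma adjusted p = 0.189). In the authors' deposited table it had a fold change of -1.12, with a p of 0.0380 after adjustment.

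ArgRS-m was higher by a log2 fold change of 0.14 without passing. Of 16 genes for mitochondrial DNA maintenance, transcription and RNA processing, 0 passed and 1 had an unadjusted p under 0.05 in limma, namely bsf, an RNA-binding protein of mitochondria, with 30.9 ± 0.392 FPKM on spermidine food and 29.2 ± 0.245 FPKM on normal food (SD, n = 3 each). Lrpprc2, another RNA-binding protein of mitochondria, had 19.2 ± 2.60 FPKM on spermidine food and 15.7 ± 2.25 FPKM on normal food (limma adjusted p = 0.305). In these 3 lists the authors' deposited p-values called 0 genes higher and 1 lower, which was ValRS-m.

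RNAs made inside mitochondria varied far more between libraries than the nuclear genes of the ribosome. The median standard error of the log2 fold change was 0.56 for RNAs of the mitochondrial genome and 0.06 for the 72 mitoribosomal genes. Of 15 tested, 0 passed in limma, 2 had an unadjusted p under 0.05, and the authors' deposited p-values called 2 lower. By those deposited p-values 8.7% of all genes tested were lower. The mean was higher on spermidine food for 9 of the 15 and lower for 6, with a median log2 fold change of 0.34. mt:lrRNA, the ribosomal RNA of the large subunit, had 1699, 1371 and 951 FPKM on spermidine food and 4411, 2549 and 1961 FPKM on normal food (log2 fold change -1.10, limma adjusted p = 0.137). mt:srRNA, the ribosomal RNA of the small subunit, had 15.6, 10.03 and 1.61 FPKM on spermidine food and 1.85, 5.76 and 3.39 FPKM on normal food, with overlapping groups. mt:CoII, a subunit of cytochrome c oxidase, had 569, 508 and 395 FPKM on spermidine food and 1494, 949 and 691 FPKM on normal food (-1.03, limma adjusted p = 0.108). The libraries came from a kit that selects messenger RNA, so these levels also depend on how far each RNA was captured, and that dependence was not tested.

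Neuronal and glial markers were present in every library, and fat body markers differed between foods. Of 6 neuronal markers tested, 4 had a lower mean on spermidine food, and Syn, a synaptic vesicle protein, fell (log2 fold change -0.17, limma adjusted p = 0.0423). Syn and Syt1 had spermidine food libraries below all of normal food, and the authors' deposited p-values called 4 of the 6 lower, elav, nSyb, Syt1 and Syn. From FPKM, elav had 83.2 to 85.1 on spermidine food and 73.6 to 85.5 on normal food. Of 5 glial markers tested 0 passed in limma, with 0 at an unadjusted p under 0.05 and 0 by the authors' deposited p-values. Of 6 fat body markers tested 4 rose, the yolk protein genes Yp1, Yp2 and Yp3, and fit. Lsp2 and apolpp had higher means without passing in limma, and Lsp2 ran from 14.5 to 319 FPKM within spermidine food. The summed FPKM of the 6 markers was 9628 to 10639 on spermidine food and 1909 to 2510 on normal food, with no marker at 0 in any library. Yp2 and Yp3 made up the largest part, with means of 3888 and 4162 FPKM on spermidine food and 690 and 977 FPKM on normal food. The part of the sex of the flies, which is not given, was not tested. Haemocyte markers had 1 of 5 higher past the threshold and summed to 79.2 to 83.0 FPKM on spermidine food and 65.1 to 77.3 FPKM on normal food. Photoreceptor markers summed to 7542 to 10471 FPKM on spermidine food and 1256 to 8281 FPKM on normal food, and the summed muscle markers also overlapped between foods. Normal food replicate 1 was lowest for 5 of 5 photoreceptor markers and highest for 5 of 5 muscle markers tested. Without that library the mean on spermidine food was the higher one for 66 of the 72 mitoribosomal genes. The median log2 fold change of all genes was then 0.03. The part of these tissues in the values of the mitoribosomal genes was not tested.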

How the data were processed

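Per the file headers, the authors deposited for each gene an FPKM value and a status in every library. They also deposited a mean normalized count for each food (a signal), a signed fold change that skips the range from -1 to 1 (a score) and a p-value without adjustment. The submitters' processing notes name HTSeq, Cufflinks and DESeq without versions, and no aligner is given in the sources used here. Trizol and a stranded mRNA kit were used, per the labels' protocols. Positions are those of the table, Ensembl build 82 per the file headers. They matched the current annotation within 2000 bases for 99.83% of the 17141 genes placed in both, and 70 of the 72 genes were found there by identifier and 2 by symbol.

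The table holds no counts per library, so log2(FPKM + 1) was fitted with limma 3.58.1 (R 4.3.3) using an intensity trend, spermidine food against normal food, two-sided, with no covariates. Genes had a status of OK in every library and at least 0.5 FPKM in at least 3 of 6 libraries. Benjamini-Hochberg adjustment covered all 10366 genes, with a threshold of 0.05. The pseudocount of 1 shrinks changes of low genes. The model was tested on simulated data. Values after ± are SD over 3 libraries. With 3 libraries a food, the smallest p an exact permutation test can give is 0.1. The depth of each library is unknown, and no interval for counting error is given. Replicate numbers were not taken to pair the libraries. Alternatives changed the scaling, filter, pseudocount, trend or p-values used, added the replicate block, or left out single libraries.

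The members, the gene lists and the naming rule were chosen with earlier results of these data known. Named are genes past either threshold, the 12 of smallest p, the 4 highest and 4 lowest of each subunit, the S18 paralogues, and for other lists the 2 of smallest p. mRpS7, mRpS24, mRpS28, mRpS30, mRpL2, mRpL3, mRpL4, mRpL10, mRpL12, mRpL13, mRpS14, mRpL20, mRpL22, mRpL27, mRpL36, mRpS23, mRpL38, mRpL39, mRpL45, mRpL51, the mitochondrial srRNA, CRIF, sigmar, CG8414 and the markers named were chosen after their values were seen.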

Additional observations from a re-analysis of the deposited data

How the results depend on the processing

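With the replicate number as a block, 257 genes passed in place of 491, mRpL34 did not pass and mRpS5 passed as lower (limma adjusted p = 0.0447). The labels do not say whether the numbers pair the libraries. Deviations of same-numbered libraries had correlations of -0.05, -0.10 and 0.02 across genes, and those of differently numbered libraries ran from -0.09 to 0.12. With 3 libraries a food these values cannot decide whether libraries were paired. The mitoribosomal count of higher genes was 0 in place of 1 after division by the FPKM sum, under the upper-quartile scaling, without a filter, without a trend, with the block and without any single library. The count of lower genes was 1 in place of 0 after division by the FPKM sum, with the block and by the authors' p-values. Over all genes 261 passed without a filter, 55 to 322 without 1 library and 1752 by the authors' p-values. Mitoribosomal genes with a higher mean numbered 19 after division by the FPKM sum and 27 under the upper-quartile scaling. The median of all genes was -0.060 and -0.037 under these scalings. The medians of the large and small subunit were -0.047 and -0.037 after division by the FPKM sum. The cause of these changes was not tested.

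Among genes described by name, the sign of the log2 fold change turned as follows, and the cause was not tested. Under median-ratio scaling, where 55 of the 72 genes in all had a higher mean, the values were -0.021 for mRpL54, -0.023 for mRpL24, -0.017 for mRpL2 and -0.014 for mRpL3. After division by the FPKM sum the named genes that turned were at -0.00015 for mRpL19, -0.085 for mRpL54, -0.035 for mRpL46, -0.047 for mRpL11, -0.090 for mRpL24, -0.049 for mRpS29, -0.037 for mRpS22 and mRpS35, -0.035 for mRpS11, -0.065 for mRpS33, -0.038 for mRpS18C, -0.050 for mRpS24, -0.053 for mRpL38, -0.082 for mRpL2, -0.079 for mRpL3, -0.060 for mRpL4, -0.014 for mRpL12, -0.0061 for mRpL22, -0.049 for mRpL45 and -0.058 for mRpS7. Under the upper-quartile scaling the named genes that turned were at -0.060 for mRpL54, -0.0098 for mRpL46, -0.022 for mRpL11, -0.064 for mRpL24, -0.024 for mRpS29, -0.012 for mRpS22, mRpS35 and mRpS18C, -0.0094 for mRpS11, -0.039 for mRpS33, -0.025 for mRpS24, -0.028 for mRpL38, -0.057 for mRpL2, -0.053 for mRpL3, -0.034 for mRpL4, -0.024 for mRpL45 and -0.033 for mRpS7. Without single libraries the values of named genes that turned ran from -0.048 to 0.055 for mRpL54, -0.030 to 0.033 for mRpL24, -0.030 to 0.080 for mRpL3, -0.013 to 0.097 for mRpL11, -0.0063 to 0.073 for mRpS24, -0.048 to 0.035 for mRpL43, -0.062 to 0.067 for mRpL33, -0.0072 to 0.071 for mRpL38, -0.033 to 0.044 for mRpL2, -0.074 to 0.054 for mRpL10, -0.014 to 0.095 for mRpL45, -0.029 to 0.071 for mRpS7 and -0.00065 to 0.11 for mRpL46. Depth per library is unknown, and with 3 libraries a food the 95% intervals of most genes are wider than a 1.1-fold change.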

Other observations

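The mitoribosomal genes are spread over the arms of the genome, with 12 on 2L, 11 on 2R, 17 on 3L, 21 on 3R and 11 on X. Their gene models are small. A single transcript is annotated for 54 of the 72, and 55 have 2 or 3 exons, 9 have 1 exon and 8 have more. The proteins run from 64 to 557 residues, with a median of 193. Across the 72 genes, mean FPKM had a Spearman correlation of -0.40 with protein length, given as a description, since genes of the same libraries are not independent and FPKM divides by a length that is uncertain for short genes. The log2 fold change had a correlation of 0.07 with mean FPKM.

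mRpS5 is the mitoribosomal gene closest to the centromere on 3L, since 98.57% of the 2028 tested genes of that arm start before it and the next such gene, mRpL15, starts at 20435110. Of 18 tested genes within 1000000 bases of it, in a window chosen after its value was seen, 14 had a lower mean on spermidine food and 6 passed as lower in limma, with 0 passing as higher. Within 500000 bases 5 of 8 had a lower mean and 3 passed as lower, and within 250000 bases 4 of 5 had a lower mean and 3 passed as lower. Of all 10366 genes tested, 4392 had a lower mean and 1.52% passed as lower. The authors' deposited p-values called 9 genes lower within 1000000 bases, 4 within 500000 and 1 within 250000, where 8.7% of all genes were. The windows are nested, so their counts are not separate observations. mRpS5 itself is not among these counts. What mRpS5 shares with these neighbours was not tested.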
